A study of Mus musculus with 5 samples.

Results

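The intermediate Cyp2e1 hepatocytes were liver cell barcodes whose Cyp2e1 level lay between the low and the high end of the range in each library. They were chosen by their own reading of Cyp2e1, at 5 or more and under 20 UMIs (unique molecular identifiers, each counting 1 captured mRNA molecule) per 10000 UMIs of the barcode, with Glul under 10 per 10000. Every barcode also had to carry at least 1000 UMIs and 500 genes, 2 to 30% of UMIs from the mitochondrial mt- genes, and under 2% from the globin genes Hba and Hbb. The rule found 3481 intermediate cells among 50000 barcodes, of which 28810 passed the other filters. The same filters left 19066 cells below the range (under 5 per 10000) and 6069 above it (20 or more). The remaining barcodes that passed had Glul at 10 or more. Because Cyp2e1 and Glul made the classes, their levels are given as a description.

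Hepatocytes along the axis from the portal to the central vein of a liver lobule divide metabolic work between them, an arrangement called zonation. Cyp2e1, a cytochrome P450 that oxidises ethanol and other small molecules, is known as a gene of the pericentral side, and Glul, glutamine synthetase, marks the last rows of cells around the central vein. Cyp2f2, another cytochrome P450, is known from the periportal side, and cells between these ends carry both programmes at middling levels. During fasting the liver makes glucose and ketone bodies and shuts down fat synthesis, and these tasks are themselves zoned.

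Total hepatocytes were isolated from the liver of wild-type male C57BL/6J mice kept on Normal Chow. Every group shared 3 days of training in which a 16 h overnight fast alternated with 8 h of feeding, with water holding 20% sucrose. One library stood for each of 0 h (fed, taken after 4 h of feeding), 4 h, 8 h, 16 h and 24 h of fasting, prepared with 10x Genomics 3′ v3 chemistry. The clock hours of collection were 13, 17, 21, 5 and 13, so that the fed and the 24 h library share a clock hour and, at the other times, hours of fasting and time of day cannot be told apart. With 1 library per time and the number of animals in each not given in the sources used here, no test between times was possible. All intervals below are exact 95% intervals that cover counting error only.

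The 5 libraries held 10000 barcodes each and 40002260 to 68330252 UMIs in total. Levels are given in CPM: the UMIs of a gene summed over the cells of a class in 1 library, for each 1000000 UMIs of that class that were not mt-. The intermediate cells supplied 3296784, 3119040, 1815050, 3813367 and 1588527 such UMIs at 0, 4, 8, 16 and 24 h, and values listed in a row below follow that order of time. No barcode sequence was that of an intermediate cell in more than 1 library. The sequences of 33 intermediate cells occurred in another library among barcodes of other kinds, out of 259 sequences shared between libraries. Doublets were not called.

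Cyp2e1 (ENSMUSG00000025479) lies on the plus strand of chromosome 7 at 140763739 to 140774987, Cyp2f2 (ENSMUSG00000052974) on the plus strand of chromosome 7 at 27119909 to 27133660, and Glul (ENSMUSG00000026473) on the plus strand of chromosome 1 at 153899944 to 153909723, all protein-coding genes in GRCm38. Summed over the intermediate cells, Cyp2e1 was at 1156, 1327, 1232, 1087 and 1233 CPM, against 40.6 to 179 CPM in the cells below and 6591 to 8300 CPM above. The median intermediate cell had 9.67, 11.3, 11.0, 7.81 and 8.60 Cyp2e1 UMIs per 10000. These values restate the rule. Glul in the intermediate cells was 181, 62.5, 70.0, 38.8 and 39.7 CPM.

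Of the 10000 barcodes in each library, 10000, 10000, 3559, 9498 and 10000 had at least 1000 UMIs, and 7826, 4567, 2716, 9125 and 4576 passed the filters. The libraries thus differed in depth, so neither numbers nor shares are like for like between times. The number of intermediate cells was 1085, 712, 208, 1161 and 315. As a share of the barcodes that passed the filters this was 13.9% (13.1 to 14.6), 15.6% (14.5 to 16.7), 7.66% (6.69 to 8.72), 12.7% (12.0 to 13.4) and 6.88% (6.17 to 7.66). The 8 h and 24 h libraries held the smaller shares under these filters, and the intervals of the fed and the 4 h library overlapped. With no lower mt- limit the order turned, since the 16 h share, 12.8%, was then below those of 8 h (13.9%) and 24 h (14.7%). With at most 15% mt- UMIs the 4 h share was 32.9% against 14.9% fed. At a minimum of 3000 UMIs the fed and 4 h shares were 6.99% and 7.61%, and 16 h had the highest, 11.0%. The cells below the range made up 67.6%, 50.01%, 73.5%, 60.5% and 86.9%, and the cells above it 17.5%, 33.7%, 18.6%, 26.0% and 6.14%. Among cells at 5 or more per 10000 alone, the intermediate share was 44.2% (42.2 to 46.2), 31.6% (29.7 to 33.6), 29.2% (25.9 to 32.7), 32.8% (31.3 to 34.4) and 52.9% (48.8 to 56.9). The 24 h library thus had few cells at 5 or more, and a larger part of them lay in the intermediate range than in the other libraries.

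**Figure D1:**
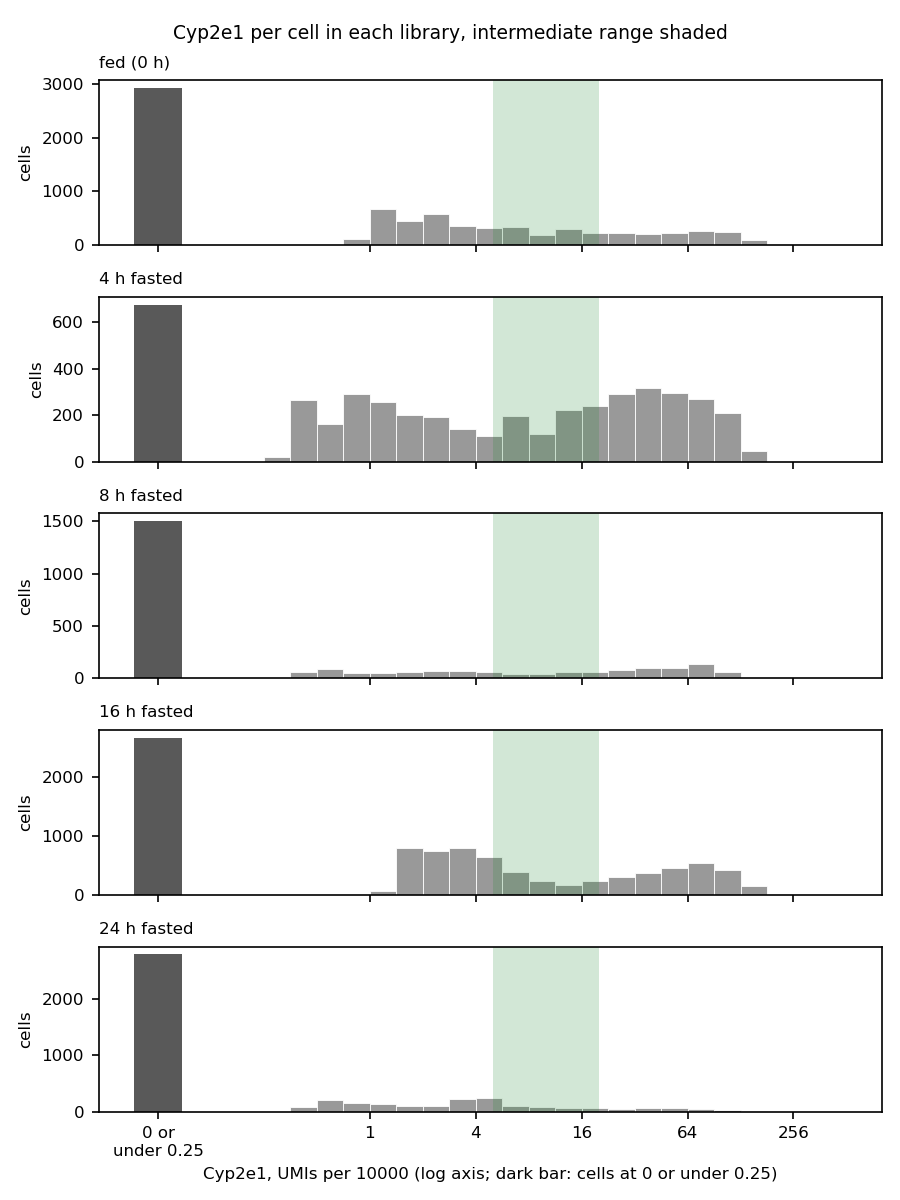
Number of cells (vertical axis) by Cyp2e1 UMIs per 10000 (log axis) among the barcodes that passed the other filters, 1 panel per library, with the intermediate range shaded and cells at 0 or near it in the dark bar. In each library more cells lay below the range than within it (50.01% to 86.9% against 6.88% to 15.6%), and at 4 and 16 h the range spans a dip ahead of a broad hump of cells above it.

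No gap in Cyp2e1 set the intermediate cells apart, as the counts of cells beside the limits show. At 4 to 5 per 10000, just outside the lower limit, stood 211, 73, 32, 441 and 214 cells, and at 5 to 6, just inside, 170, 65, 32, 298 and 30. At 18 to 20 stood 76, 74, 19, 79 and 16 cells, and at 20 to 22, just past the upper limit, 70, 81, 14, 65 and 18. The drop across the lower limit at 24 h, from 214 to 30 cells, went with a median of 2330 UMIs per cell outside it and 6273 inside it. Cyp2f2 in the bands on either side of the lower limit was 2135 and 1816 CPM in the fed library and 956 and 1203 CPM at 24 h. On either side of the upper limit it was 1289 and 1179 CPM fed, and 1449 and 1957 CPM at 24 h.

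The intermediate cells were shallower than the cells below the range. Their median was 2058, 2054.5, 8015.5, 3674 and 3120 UMIs, against 6417, 18925.5, 16021, 4628 and 9660 below and 3748, 4422, 11868, 3915 and 7939 above. A barcode of up to 2000 UMIs reaches 5 per 10000 with a single Cyp2e1 UMI, and 529 (48.8%), 350 (49.2%), 50 (24.0%), 272 (23.4%) and 0 of the intermediate cells were of that size. Membership rested on under 3 Cyp2e1 UMIs in 52.6%, 47.1%, 25%, 40.1% and 38.1% of them. When each barcode was thinned to 1000 UMIs before it was assigned, 920, 583, 170, 1271 and 384 cells fell in the range, and 431, 308, 68, 503 and 126 of them were intermediate at full depth too. At 1000 UMIs only a barcode with a single Cyp2e1 UMI can fall in the range, since a barcode without any is below it and any more put it above. Many changes of class were thus built into the redraw, which cannot show how firmly a cell belongs to the class at full depth. The class is a range of counts around a middling Cyp2e1 level, and for many of its cells it rested on few Cyp2e1 UMIs.

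Of the intermediate cells, 408, 250, 143, 738 and 171 had at least 3000 UMIs, a depth at which 1 Cyp2e1 UMI no longer suffices. Some results below are given also for these deeper cells, with the neighbouring classes held to the same depth. The median mt- share of the intermediate cells was 9.27%, 15.01%, 9.73%, 13.3% and 10.7%.

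**Figure D2:**
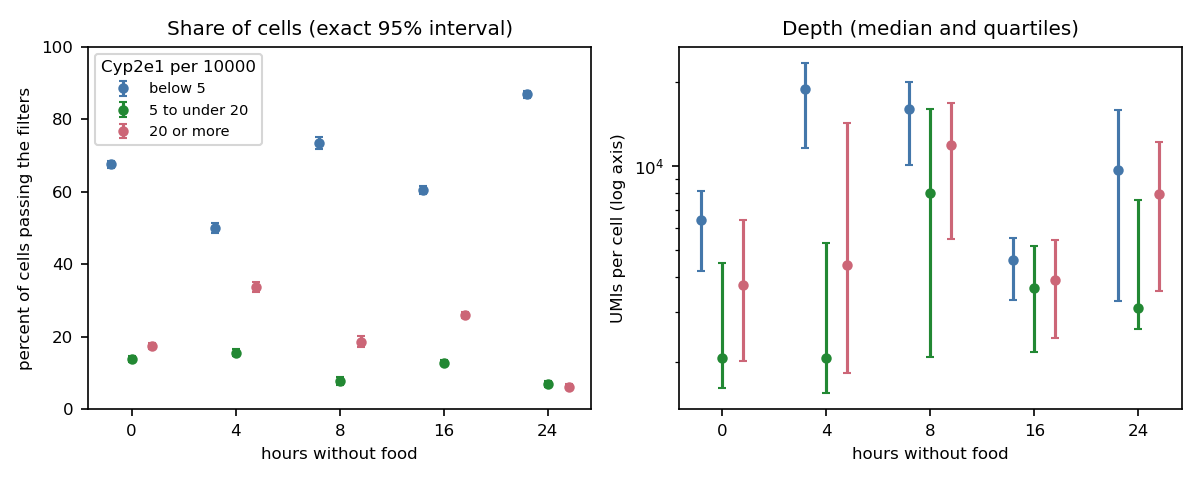
Left, share of the passing cells in each of the 3 Cyp2e1 classes at each fasting time, with exact 95% intervals for counting error; right, median UMIs per cell of the classes (log axis), with bars from the lower to the upper quartile. The intermediate share ran from 6.88% at 24 h to 15.6% at 4 h, and the intermediate cells had the lowest median depth of the 3 classes at each time.

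Hepatocyte transcripts dominated the sums. The hepatocyte markers Alb, Apoa1, Ttr, Apob, Fgb and Ahsg together made 84049, 72793, 66467, 111306 and 77983 CPM of the intermediate cells. Alb itself, serum albumin, was at 60947, 49370, 42838, 83876 and 55072 CPM. Markers of other liver cell types were present at low sums. The 10 endothelial markers summed to 446, 55.1, 24.2, 119 and 39.0 CPM, with all 10 detected in the fed, 4 h and 16 h libraries and 9 at 8 h (Oit3 at 0) and 24 h (Eng at 0). The 8 Kupffer cell markers summed to 154, 39.4, 0, 22.03 and 0 CPM, all 8 detected at 0, 4 and 16 h and none at 8 and 24 h. The 8 stellate cell markers summed to 117, 5.8, 2.8, 25.7 and 30.8 CPM. The 6 cholangiocyte markers summed to 184, 191, 122, 329 and 170 CPM, against 178 to 338 CPM in the cells below and 110 to 196 CPM above. Of these Krt7 was at 0 in the intermediate cells of every library, and Epcam and Krt19 were at 0 in all but the fed one, so the sum came from Sox9, Spp1 and Tm4sf4 in the fasted libraries.

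Over all cells of each class, endothelial markers were higher in the intermediate cells than in either neighbour, and not in the fed library alone. There 113 intermediate cells (10.4%) carried 3 or more UMIs of non-hepatocyte markers, against 2.34% of the cells below and 1.096% of those above, and at 16 h 2.58% did, against 0.670% and 0.463%. The endothelial sum below the range was 58.2, 4.72, 9.95, 21.0 and 18.8 CPM, and above it 37.8, 3.96, 6.15, 20.1 and 6.30 CPM, in each library under that of the intermediate cells. Among the intermediate cells with at least 3000 UMIs it was 52.0 CPM fed, then 60.9, 2.3, 9.6 and 34.5 CPM. At that depth the cells below had 20.1, 4.73, 5.73, 11.0 and 12.4 CPM, and those above 10.4, 4.19, 6.10, 10.5 and 6.73 CPM. In these deeper cells the intermediate sum was thus under both neighbours at 8 and 16 h. At 4 h, 6 intermediate cells carried 3 or more non-hepatocyte UMIs. The Kupffer sum of the deeper cells was 96.6, 50.9, 0, 0.641 and 0 CPM and the stellate sum 57.9, 4.17, 2.33, 1.92 and 36.1 CPM. Markers of these types thus remained in the deeper cells of the fed library, at lower sums than over all its intermediate cells, and at 4 h 146 of 172 endothelial and 122 of 123 Kupffer UMIs were in the deeper cells. Without barcodes of 3 or more non-hepatocyte UMIs, the genes called against fed were 146 higher and 214 lower at 4 h, 249 and 347 at 8 h, 127 and 194 at 16 h, and 231 and 360 at 24 h. With them these were 138 and 232, 246 and 376, 119 and 206, and 224 and 379.

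Pericentral genes placed the intermediate cells between the other classes. Cyp1a2, a pericentral cytochrome P450, was at 128, 171, 275, 96.8 and 57.9 CPM in the intermediate cells, against 26.4, 39.2, 47.6, 26.1 and 11.3 CPM below and 582, 623, 601, 508 and 158 CPM above. Oat, ornithine aminotransferase, was at 116, 236, 57.8, 78.9 and 68.0 CPM, again between the 2 neighbours in all 5 libraries. Cyp2c29 was at 1001, 542, 396, 771 and 402 CPM, against 11.3 to 114 CPM below and 1167 to 4608 CPM above. Cyp2a5, which acts on coumarin and nicotine, was at 52.5, 68.6, 16.0, 14.9 and 12.6 CPM in the intermediate cells, 13.4, 8.15, 1.35, 10.8 and 2.26 CPM below and 868, 731, 366, 349 and 648 CPM above.

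Counted over the list of 20 pericentral genes, a ratio of at least 1.5-fold with 50 CPM or more in either class was called higher or lower. Against the cells below, 10 of 13, 8 of 12, 10 of 12, 8 of 12 and 7 of 11 pericentral genes that reached 50 CPM were called higher in the intermediate cells at 0, 4, 8, 16 and 24 h and 0 lower. Over all genes tested, 6.28%, 4.26%, 1.51%, 0.51% and 7.8% were called higher and 0.811%, 0.963%, 0.716%, 0.146% and 2.74% lower. The median log2 ratio of the list was 1.97, 1.75, 2.64, 1.47 and 1.15, where the median of all genes lay between -0.06 and 0.04. Against the cells above, 14 of 14, 13 of 14, 14 of 14, 15 of 15 and 12 of 14 were called lower and 0 higher. The background of lower calls there was 4.17%, 4.7%, 3.09%, 3.98% and 9.4%, and of higher calls 3.76%, 2.84%, 1.16%, 1.96% and 13.3%. On the log2 scale the median pericentral gene stood 46.1%, 51.2%, 61.4%, 38.7% and 60.1% of the way from the lower to the upper class, over 16, 15, 14, 16 and 10 genes. On the linear scale these were 19.1%, 22.5%, 32.2%, 12.4% and 33.0%, nearer to the cells below at each time. The classes were cut on a pericentral gene, so these counts describe how other genes vary with Cyp2e1 in the same cells.

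On the log2 scale the median periportal gene stood nearer to the cells below than to those above up to 16 h, but not at 24 h. Cyp2f2 was at 1611 (1568 to 1655), 1559 (1515 to 1603), 2181 (2113 to 2250), 1811 (1769 to 1854) and 1277 (1222 to 1334) CPM in the intermediate cells. In the cells below it was at 2107, 1899, 2477, 1990 and 1724 CPM, and above at 569, 421, 527, 422 and 1099 CPM. The gap to the upper class, a log2 ratio of 1.502, 1.89, 2.05 and 2.10 up to 16 h, was 0.22 at 24 h. Hal, histidine ammonia-lyase, was at 284, 483, 502, 653 and 738 CPM and Ctsc, the protease cathepsin C, at 109, 97.5, 25.9, 203 and 80.6 CPM, each between its neighbours in every library. Of the listed periportal genes with at least 200 UMIs, 17 of 17, 15 of 18, 18 of 18, 17 of 18 and 11 of 18 lay between. At 24 h Sds and Sdsl were above both neighbours by at least 1.1-fold, and Pigr, Igf1 and Mfsd2a below both. For Hal too the log2 ratio to the cells above was lower at 24 h (0.27) than at the earlier times (1.24 to 1.97).

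Over the 18 periportal genes, 8 of 16, 4 of 16, 7 of 17, 3 of 15 and 6 of 15 tested were called lower in the intermediate cells than below, with medians of -0.58, -0.44, -0.51, -0.31 and -0.45. Against the cells above, 10 of 14, 11 of 15, 11 of 14 and 13 of 15 were called higher up to 16 h, and 3 of 14 (Sds, Hsd17b6 and Ctsc) at 24 h. The medians were 1.15, 1.24, 1.04, 1.73 and 0.29. In the log2 distance between the outer classes, the intermediate cells had covered a median of 36.8%, 26.9%, 27.3%, 14.9% and 52.0% of the periportal gap. On the linear scale these were 57.2%, 39.0%, 42.7%, 25.4% and 66.0%, past the middle in the fed library too. These medians are over the 15, 15, 15, 16 and 8 genes at least 2-fold apart between the outer classes with 10 or more UMIs in each, so the 24 h value rests on fewer genes, Cyp2f2 and Hal not among them. At 24 h that count stands beside 13.3% of all genes called higher than above. The upper class had a hepatocyte marker sum of 90040 CPM at 24 h, against 50654 to 72020 CPM earlier, and the part of this in the counts was not tested.

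The same counts in cells of at least 3000 UMIs were close. For pericentral genes they were 9 of 12, 8 of 12, 10 of 12, 9 of 12 and 7 of 11 higher than below, and for periportal genes 12 of 14, 12 of 15, 11 of 14, 13 of 15 and 3 of 14 higher than above. Over all genes at that depth, 0.889%, 1.07%, 1.69%, 0.541% and 3.31% were called higher than below and 0.534%, 0.37%, 0.714%, 0.144% and 1.58% lower. Against the cells above, 1.23%, 2.03%, 1.23%, 2.23% and 6.98% were called higher and 3.31%, 3.63%, 3%, 4.16% and 3.67% lower. All-gene calls against the cells below were thus fewer at this depth in the fed, 4 h and 24 h libraries, while the zonated lists kept near their counts. Cyp2f2 in the deeper intermediate cells was 1931, 1800, 2182, 1778 and 1483 CPM.

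Within the range, the cells with more Cyp2e1 had less Cyp2f2, except at 24 h. In the bins 2.5 to 5, 5 to 10, 10 to 20 and 20 to 40 Cyp2e1 UMIs per 10000, Cyp2f2 was 2096, 1734, 1471 and 1164 CPM in the fed library, and 1957, 1940, 1562 and 1034 CPM at 16 h. At 24 h the order in these bins was the opposite, at 960, 1100, 1488 and 1682 CPM. Outside them it was 1777 CPM under 1 and 1626 CPM at 1 to 2.5 per 10000, and 1033 CPM at 40 to 80 and 239 CPM at 80 or more. Median depth in the quoted 24 h bins was 2727, 3050, 3861.5 and 6139.5 UMIs, and its part in that order was not tested. Cyp1a2 increased with the bin at both ends of the series, from 39.3 to 301 CPM fed and from 28.1 to 115 CPM at 24 h. The 2 bins inside the range held 563 and 522 cells fed and 193 and 122 at 24 h.

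**Figure D3:**
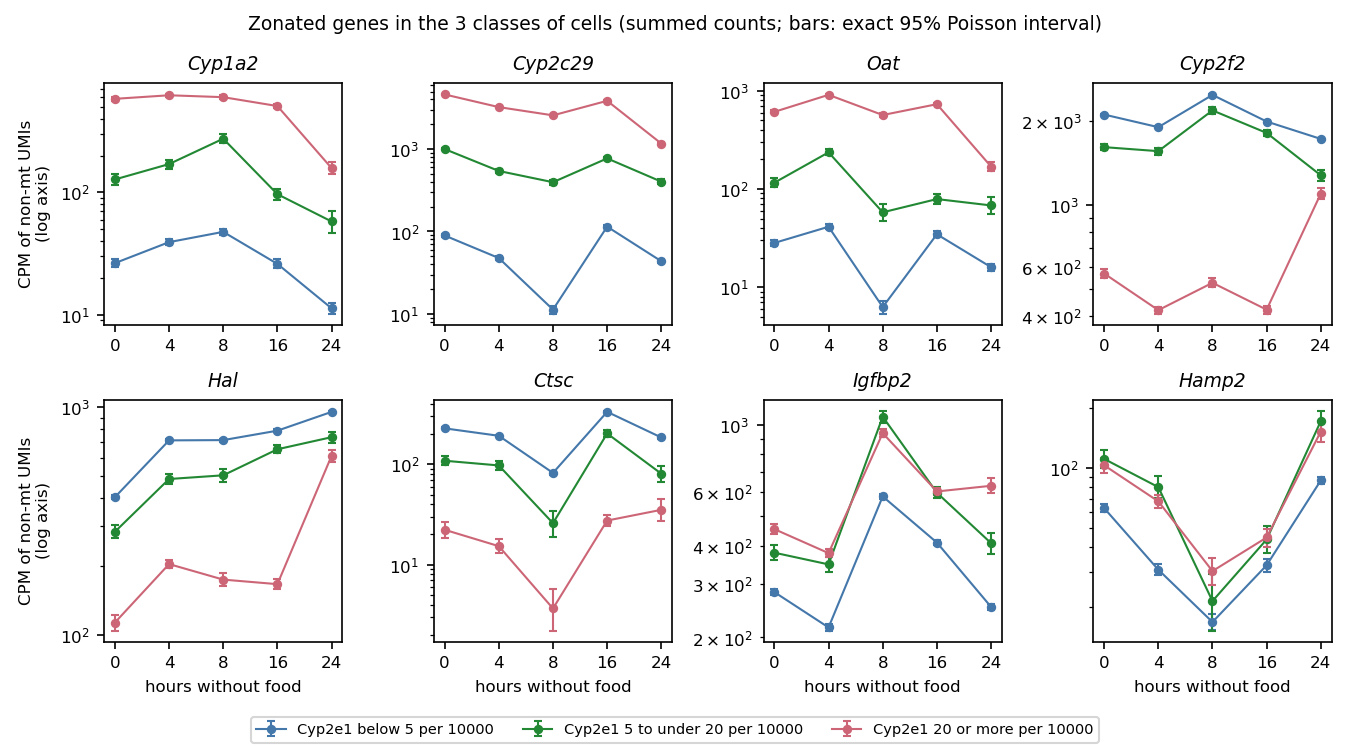
CPM (log axis) of 3 pericentral genes (Cyp1a2, Cyp2c29, Oat), 3 periportal genes (Cyp2f2, Hal, Ctsc) and 2 mid-lobular genes (Igfbp2, Hamp2) against hours of fasting in the cells below, within and above the Cyp2e1 range, with counting intervals. The intermediate points lie between the outer classes for the pericentral and periportal genes, while Hamp2 in the intermediate cells (21.5 to 172 CPM) lies at or above both at 0, 4 and 24 h.

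Some genes known from the middle of the lobule, Hamp, Hamp2 and Igfbp2, were called higher in the intermediate cells than below in 3 or 4 of the 5 libraries. Hamp, which encodes the iron hormone hepcidin, was at 1135, 762, 874, 567 and 921 CPM in the intermediate cells, 590, 386, 512, 413 and 550 CPM below, and 1484, 751, 1031, 668 and 1538 CPM above. Hamp2, a near copy whose reads may be split with Hamp, was at 111, 80.2, 21.5, 43.8 and 172 CPM, against 103, 68.0, 30.4, 44.8 and 152 CPM above. Igfbp2, a binding protein of insulin-like growth factors, was at 380, 348, 1064, 598 and 409 CPM, against 282, 216, 582, 410 and 252 CPM below. Of the mid-lobular genes tested, 2 of 5, 3 of 5, 2 of 4, 0 of 4 and 3 of 5 were called higher than below, and 0 of 5, 1 of 5, 1 of 4, 1 of 4 and 3 of 5 lower than above. Over all genes tested, 6.28%, 4.26%, 1.51%, 0.51% and 7.8% were higher than below, and 4.17%, 4.7%, 3.09%, 3.98% and 9.4% lower than above. At 24 h the 3 lower ones were Hamp, Igfbp2 and Cyp8b1, a sterol hydroxylase of bile acid synthesis. In cells of at least 3000 UMIs Hamp alone was called lower than above at 24 h, and 3 of 5 genes were called higher than below in the fed library. Mup3, a major urinary protein, was called against the cells below in no library.

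Ccnd1, cyclin D1, a gene of cell cycle entry, was at 37.9, 7.37, 3.31, 17.0 and 3.78 CPM in the intermediate cells, against 5.86, 1.11, 0.299, 5.22 and 0.851 CPM below and 16.9, 5.47, 4.04, 11.6 and 7.35 CPM above. It was under the 50 CPM minimum and entered no count. Sums of the other cell types' markers were also higher in the intermediate cells of the fed library, and their part in the Ccnd1 level was not tested.

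Of the bile acid genes, Cyp7a1 lay between the outer classes in all 5 libraries. Cyp7a1, the rate-limiting enzyme of bile acid synthesis, was at 89.8 (79.8 to 101), 77.9, 123, 14.2 (10.6 to 18.5) and 104 CPM in the intermediate cells. Below it was at 16.9, 22.3, 9.38, 2.63 and 15.3 CPM, and above at 350, 432, 365, 89.3 and 300 CPM. It was the bile acid gene called higher than below at 0, 4 and 24 h (1 of 11 each). At 8 h it was joined by the transporter Slco1b2, and at 16 h, where Cyp7a1 was under 50 CPM in both classes, 0 of 10 were called. Against the cells above, 5, 5, 3, 6 and 8 of 11 bile acid genes were called lower, with Cyp7a1 among them each time. In cells of at least 3000 UMIs the counts were 2, 2, 2, 0 and 1 higher than below and 5, 4, 3, 6 and 5 lower than above.

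Of the 7 urea cycle genes (6 tested at 16 h), 0 were called against the cells below in any library, and against the cells above Asl alone was called, higher at 16 and 24 h. Of 11 secreted proteins 0 were called against the cells below, and Apoa1 at 4 h and Alb at 16 h were called higher than above. The endoplasmic reticulum folding genes had 0 calls against the cells below, and 1 of 7 lower than above at 8 h (Pdia4) and at 24 h (Hsp90b1). In cells of at least 3000 UMIs neither folding gene was called, and Asl was called at 16 h but not at 24 h. Acute phase genes, made by the liver in inflammation, had 5 of 9 members higher than above at 4 h, namely Saa1, Saa2, Hp, Orm1 and Hpx. In cells of at least 3000 UMIs these were 3 of 9, Saa1, Saa2 and Hpx. Over all genes 2.84% were higher than above at 4 h, and 2.03% at that depth. In the deeper cells 2 of 9, 1 of 6, 1 of 11 and 1 of 7 acute phase genes were higher than above at 0, 8, 16 and 24 h.

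Several of the genes at the ends of the comparison with the cells below were members of the zonated lists. Cyp2c29 was among the 3 highest in all 5 libraries. Aldh1b1, a mitochondrial aldehyde dehydrogenase, was the lowest at 0, 4, 8 and 24 h, at 22.7, 37.8, 23.1 and 27.7 CPM against 69.8, 89.8, 94.1 and 90.7 CPM. Against the cells above, Cyp2a5 was the lowest in all 5 libraries, and Mup17, a major urinary protein whose reads can be shared with other Mup genes, was at 321 against 3007 CPM in the fed library and 182 against 1299 CPM at 4 h. Aldh3a2, a fatty aldehyde dehydrogenase, was at 12.1 against 235 CPM at 8 h and 64.8 against 338 CPM at 24 h.

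Some of the highest genes of the fed library came with shallow barcodes, while 2 at 4 and 24 h rested on 1 deep cell each. Clec4g, an endothelial lectin, was at 69.5 CPM in the fed intermediate cells against 7.38 CPM below and 4.64 CPM above, and Marcks and Cyp26b1 were at 55.2 and 56.4 CPM against 2.04 and 2.78 CPM above. None of these 3 was among the 3 highest fed genes at a depth of at least 3000 UMIs. There Cyp2c29, Cyp7a1 and Cyp1a2 led against the cells below, and Tmsb4x (thymosin beta 4, 90.6 against 6.32 CPM), Ctsc and Cyp2f2 against the cells above. At 4 h Tmsb4x was at 52.6 CPM against 2.22 CPM below, with 98.2% of its UMIs from cells of at least 3000 UMIs, but 147 of the 164 came from 1 cell, without which it was at 5.45 CPM. AY036118, a transcript of the ribosomal DNA region, was at 312, 915, 25.9, 45.1 and 1558 CPM, and 7.49% and 12.5% of its UMIs at 0 and 4 h came from intermediate cells of at least 3000 UMIs. At 24 h Rsad2, an interferon-induced antiviral gene, was at 127 CPM against 7.25 CPM below, with 96.0% of its UMIs from such cells, but 172 of the 201 came from 1 cell, without which it was at 18.3 CPM.

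For each gene with at least 200 UMIs in the 3 classes together, the order of the classes was recorded, with 1.1-fold as the least difference. The intermediate level lay between the outer classes for 29.0%, 27.5%, 38.8%, 43.4% and 19.6% of genes, above both for 19.2%, 12.7%, 11.7%, 7.77% and 21.4%, and below both for 18.4%, 31.5%, 17.3%, 10.4% and 36.2%. In cells of at least 3000 UMIs, genes between made up 38.1%, 36.8%, 38.2%, 43.4% and 24.7%, and genes above both 12.7%, 13.0%, 12.3%, 7.70% and 20.2%. The intermediate cells therefore held a middle level more often in the deeper cells of the fed, 4 h and 24 h libraries than over all their cells, and least often at 24 h at either depth.

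Across libraries, of 7941 genes measured in at least 4 of them, 609 were between the outer classes in 4 or 5 libraries, 105 above both and 168 below both. At a depth of at least 3000 UMIs the counts above and below both were 40 and 63, of which 16 and 31 were on the full list. The 7 genes above both in all 5 libraries were Eif3i, 1810059H22Rik, Eif3k, Psmb10, Snf8, Clybl and AY036118. Psmb10, a subunit of the immunoproteasome, was at 27.0, 25.01, 18.7, 16.0 and 40.3 CPM, against 18.1, 15.8, 13.2, 10.7 and 21.2 CPM below and 13.9, 12.2, 7.69, 8.76 and 20.5 CPM above. Eif3k, a subunit of a translation initiation factor, was at 44.0, 85.9, 83.2, 36.7 and 99.5 CPM, against 26.0 to 71.9 CPM in the other classes. Both of these, with Clybl, AY036118 and 1810059H22Rik, were also above both in at least 4 libraries in the deeper cells.

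Against the fed library, the intermediate cells had lower fat synthesis and protein folding transcripts at each fasting time, and higher Pck1, Angptl4 and metallothionein transcripts. A gene was called against the fed library at 2-fold or more with at least 50 CPM in either library. Over all genes tested, 4.7%, 8.06%, 3.94% and 7.47% were called higher at 4, 8, 16 and 24 h and 7.89%, 12.3%, 6.82% and 12.6% lower. The median log2 ratio of all genes was -0.07, -0.04, -0.01 and -0.06. Scaling by trimmed means (TMM) moved it to 0.16, 0.13 and 0.17 at 4, 8 and 24 h. The 4 comparisons share the fed library, so their values stand side by side and their likeness is no separate result.

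Of 14 genes of fat synthesis and glycolysis tested, 9, 9, 10 and 13 were called lower and 0 higher, with medians of -1.27, -1.20, -2.25 and -2.79. Fasn, fatty acid synthase, was at 1951 (1904 to 1999), 78.5 (69.0 to 89.0), 106, 133 and 81.8 CPM. All 4 fasted libraries lay far under the fed level, with log2 ratios of -4.63, -4.21, -3.88 and -4.58. Elovl6, which lengthens fatty acids, was at 880, 56.1, 22.04, 71.1 and 32.7 CPM, and Acly, which supplies acetyl-CoA, at 1716, 412, 175, 240 and 110 CPM. Thrsp, a lipogenic protein induced by feeding, went from 3444 CPM to 1306, 506, 119 and 427 CPM, with its lowest value at 16 h. The regulator Srebf1 was at 384, 76.6, 29.8, 69.5 and 55.4 CPM. Scd1, the desaturase, was at 7925, 5867, 6309, 10358 and 2820 CPM, and it and Acss2, which makes acetyl-CoA from acetate, were called at 24 h only. Elovl5, another elongase, was at 201, 210, 214, 389 and 143 CPM and was called at no time.

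Pck1, phosphoenolpyruvate carboxykinase of gluconeogenesis, was called higher at every fasting time. It was at 539 (514 to 565), 3398 (3334 to 3463), 3631 (3544 to 3720), 3737 (3676 to 3799) and 3665 (3571 to 3760) CPM in the intermediate cells, with log2 ratios to fed of 2.66, 2.75, 2.79 and 2.77. It had its fasting level by 4 h and stayed within 3398 to 3737 CPM after that. In the cells below it was at 1020, 4385, 3725, 4302 and 4812 CPM, and above at 492, 3014, 3375, 2359 and 3943 CPM. The log2 ratio of the intermediate cells to the cells below was thus -0.92 in the fed library and -0.04 at 8 h.

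G6pc, glucose-6-phosphatase, which releases free glucose, did not follow Pck1. It was at 257 (240 to 274), 249, 676 (639 to 715), 803 (775 to 832) and 296 CPM, called higher at 8 h (1.40) and 16 h (1.65), with log2 ratios of -0.04 at 4 h and 0.21 at 24 h. Got1, an aminotransferase of the malate-aspartate route, was at 104, 516, 1294, 196 and 364 CPM, highest at 8 h. Fbp1, fructose-1,6-bisphosphatase, was at 965, 750, 559, 935 and 973 CPM and was called at no time. Sds, serine dehydratase, was at 97.7, 346, 398, 140 and 655 CPM. Of the 14 genes tested, 3, 6, 2 and 3 were called higher, and 1 lower, Slc37a4 at 16 h, with medians of -0.00, 0.54, 0.03 and 0.21.

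Of the genes of fatty acid oxidation and its regulation, 1 of 18, 3 of 19, 4 of 18 and 7 of 20 were called higher than fed. Over all genes tested 4.7%, 8.06%, 3.94% and 7.47% were, so the 4 h count lay near that share. Cyp4a10 at 4 h was the 1 called lower, and the medians were 0.09, 0.52, 0.58 and 0.77. Angptl4, an inhibitor of lipoprotein lipase, was called each time, at 9.40 (6.39 to 13.3), 122, 342, 77.4 and 99.5 CPM. Cpt1a, which admits fatty acids to mitochondria, was at 115, 178, 224, 308 and 369 CPM and was called at 16 and 24 h. The fatty acid hydroxylases Cyp4a10 and Cyp4a14 had their highest values at 24 h, at 1639 and 2660 CPM against 355 and 660 CPM fed. Acot1, an acyl-CoA thioesterase, was at 3.03, 47.5, 69.4, 20.2 and 61.1 CPM.

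**Figure D4:**
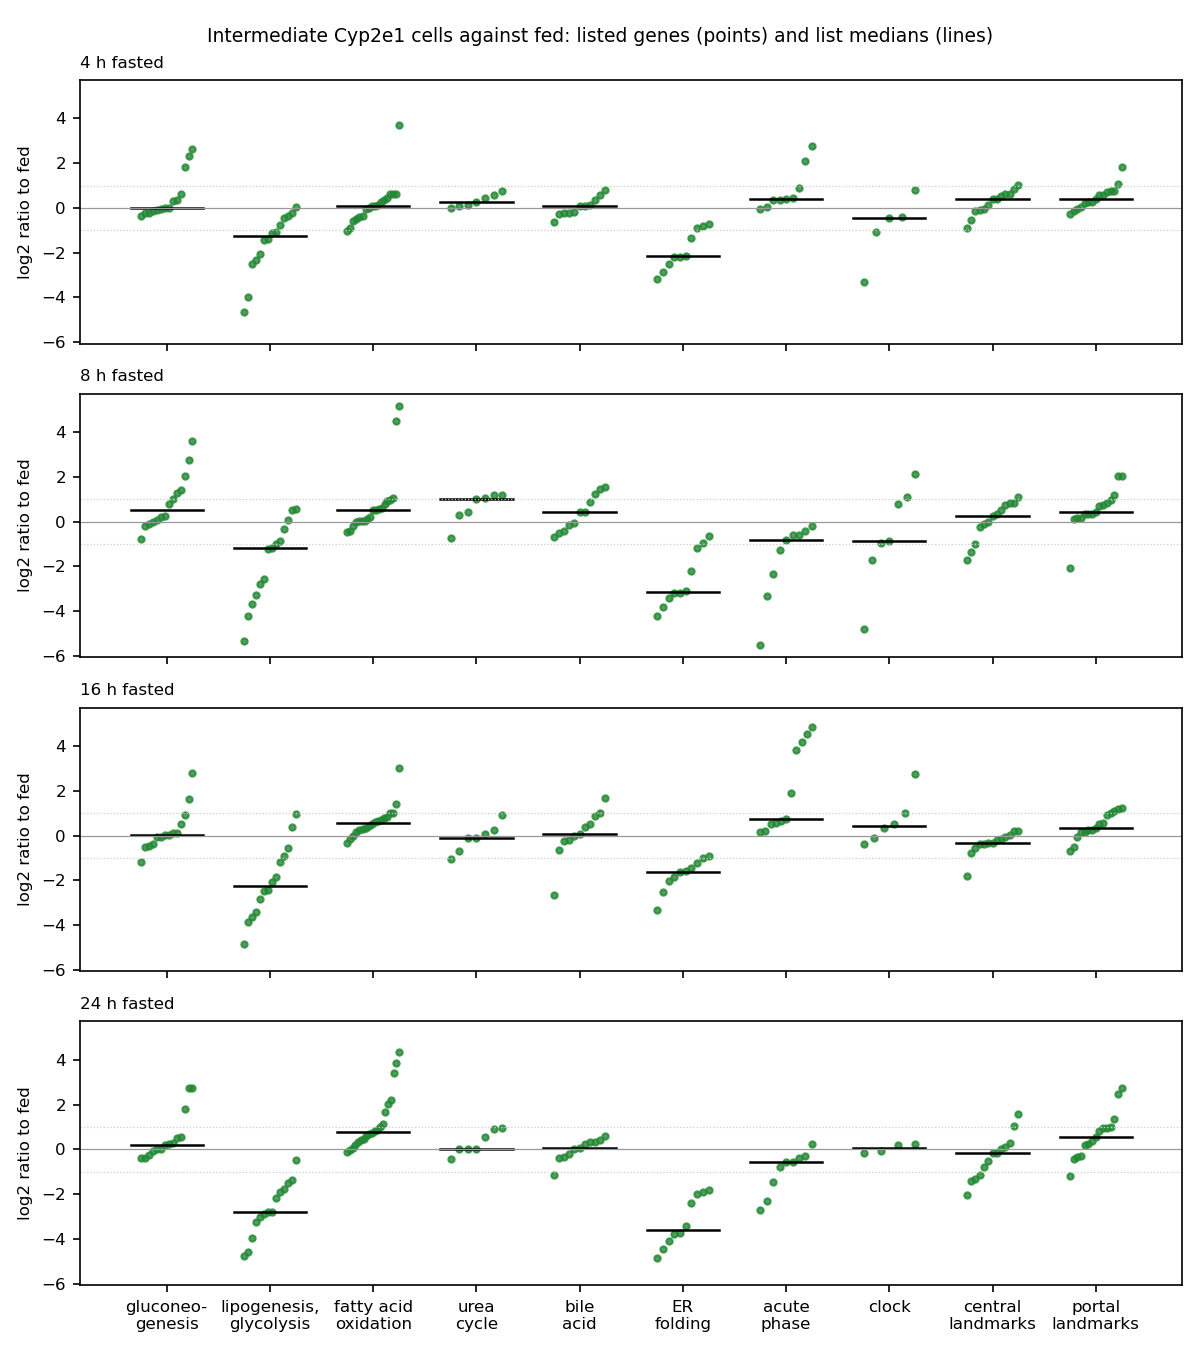
Log2 ratio to the fed library of the tested members of 10 gene lists in the intermediate cells, with 1 panel for each of 4, 8, 16 and 24 h, a point per gene a black line at the list's median and dotted lines at the 2-fold limits. The fat synthesis medians (-1.27, -1.20, -2.25, -2.79) and the folding medians (-2.17, -3.14, -1.62, -3.59) lie well under 0 in each panel, while the gluconeogenesis medians stay between -0.00 and 0.54.

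The urea cycle stood out at 8 h alone. Ass1, argininosuccinate synthase, was at 2326, 3447, 5285, 1456 and 3385 CPM. At 8 h 4 of 7 genes, Ass1, Nags and Slc25a15 among them, were called higher with a median of 1.01. The calls at 4 and 24 h were 0, and at 16 h Asl alone was called, lower. Cps1, the entry enzyme, was at 3539, 3784, 4754, 3330 and 2586 CPM and was called at no time.

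Folding factors of the endoplasmic reticulum were lower at every fasting time. Of 10 tested, 7, 8, 8 and 10 were called lower and 0 higher, with medians of -2.17, -3.14, -1.62 and -3.59. Hspa5, the chaperone BiP, was at 2896 (2838 to 2955), 647, 337, 802 and 268 CPM. Creld2 was at 182, 25.01, 17.1, 18.1 and 6.30 CPM, and Calr, calreticulin, at 1104, 662, 699, 587 and 317 CPM. Both Hspa5 and the list's median were nearer to the fed level at 16 h than at the other fasting times.

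The acute phase genes alternated between libraries. Saa2, a serum amyloid A protein, was at 204 (189 to 220), 1406, 4.41 (1.90 to 8.69), 4771 and 41.5 CPM, and Saa1, whose reads may be split with it, at 323, 1391, 32.0, 4613 and 49.1 CPM. At 24 h, 60 of the 66 Saa2 UMIs were in 1 cell, and so were 43 of the 78 Saa1 UMIs, without which Saa1 was at 22.03 CPM. Lcn2, lipocalin 2, was at 9.40, 45.5, 4.96, 272 and 23.3 CPM. Of the genes tested, 2 of 9 were called higher at 4 h and 5 of 11 at 16 h, while 4 of 9 were called lower at 8 h and 3 of 9 at 24 h. The 4 h and 16 h libraries were high and the others low in the acute phase genes named here. With 1 library per time, a difference between times and a difference between mice cannot be told apart.

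Metallothioneins, which bind zinc and copper, were lowest in the fed cells. Mt2 was at 28.2 (22.8 to 34.6), 2011, 1685, 520 and 473 CPM and its near copy Mt1 at 160, 6133, 5886, 1476 and 2208 CPM, both called higher at every fasting time. Cdkn1a, the cell cycle inhibitor p21, was at 3.64, 76.6, 266, 2.88 and 8.81 CPM, high at 4 and 8 h. Gadd45g was called lower at 16 and 24 h.

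**Figure D5:**
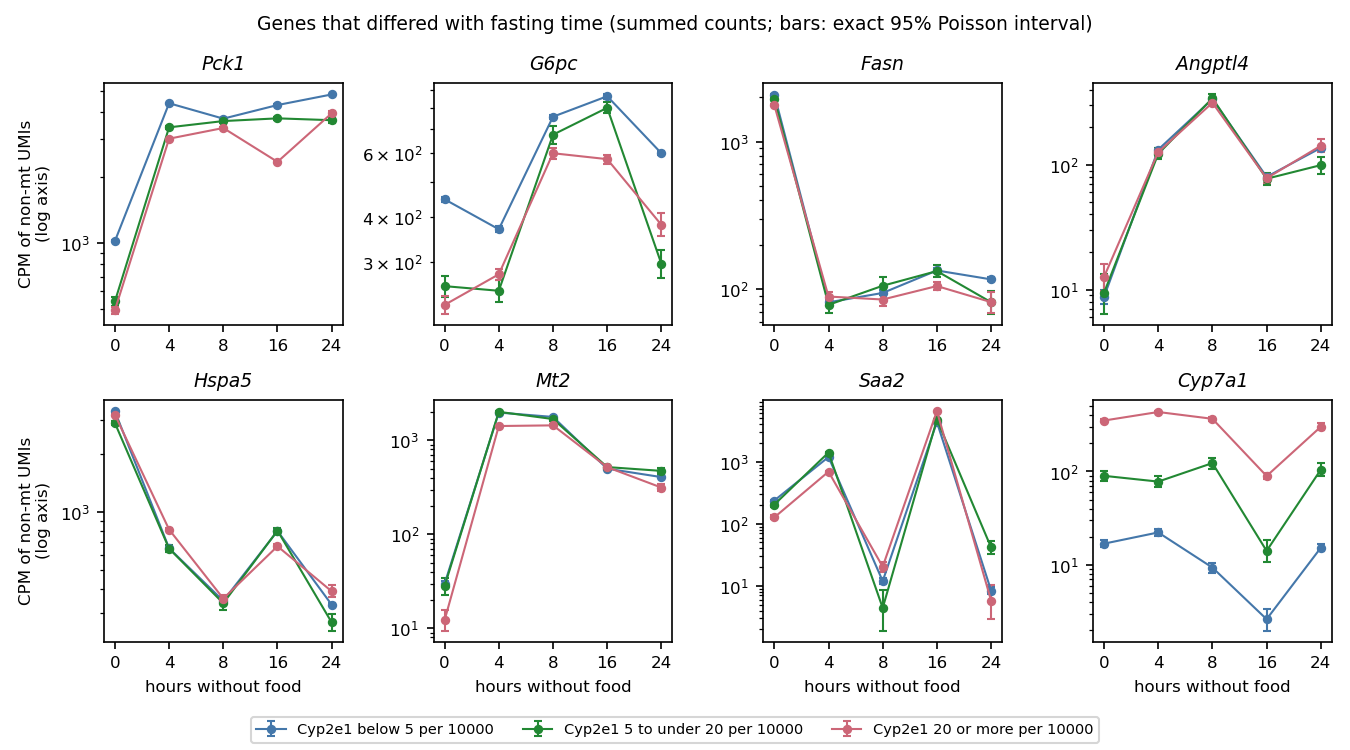
CPM (log axis) of 8 genes against hours of fasting in the cells below, within and above the Cyp2e1 range, with counting intervals. Pck1 in the intermediate cells rises from 539 CPM to 3398 CPM by 4 h, Fasn and Hspa5 fall, Saa2 alternates between 4.41 and 4771 CPM, and Cyp7a1 has its lowest point at 16 h (14.2 CPM).

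Clock genes differed between libraries taken at different hours of the day. Dbp, an output gene of the clock, was at 61.3, 6.09, 2.20, 76.8 and 73.0 CPM and Nr1d1, a repressor of the clock, at 19.1, 5.45, 3.31, 128 and 6.30 CPM. Arntl, the activator BMAL1, was at 4.85, 27.9, 34.7, 7.08 and 4.41 CPM. Arntl and Dbp had close values in the fed and the 24 h library, which share a clock hour, and Nr1d1 did not. Of the clock genes tested, 0 of 5, 2 of 7, 2 of 6 and 0 of 4 were called higher at 4, 8, 16 and 24 h, and 2, 2, 0 and 0 lower.

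Among zonated genes, both directions occurred against fed. Of 13 pericentral genes tested at each time, 1, 1, 0 and 2 were called higher than fed and 0, 3, 1 and 4 lower. Cyp1a2 was called higher at 8 h (1.11) and lower at 24 h (-1.14). Cyp2c29 was called lower at 8 and 24 h, and Cyp2a5 at 8, 16 and 24 h. Of 15 periportal genes, 2, 3, 4 and 3 were called higher and 0, 1, 0 and 1 lower. Sds was among the higher ones at 4, 8 and 24 h and the lipid transporter Mfsd2a at all 4 times. Cyp2f2 had log2 ratios of -0.05, 0.44, 0.17 and -0.34 and was called at no time. Of the 5 mid-lobular genes, Igfbp2 and Cyp8b1 were higher at 8 h, Hamp2 was lower at 8 and 16 h and Hamp at 16 h (567 CPM).

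Of 11 bile acid genes, 0, 3, 1 and 0 were called higher than fed and 0, 0, 1 and 1 lower. Cyp7a1 was called lower at 16 h, with a log2 ratio of -2.66. Of 10 conjugation genes, Por, which passes electrons to the cytochromes P450, was at 153, 386, 837, 157 and 520 CPM and was called higher at 4, 8 and 24 h. Gstp1, a glutathione transferase with a near copy, was at 112, 266, 290, 21.2 and 166 CPM, and at 35.4, 146, 287, 21.8 and 111 CPM in the deeper cells. Secreted proteins gave 0, 1, 1 and 0 higher calls and 0, 1, 0 and 0 lower.

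At 4 h the highest log2 ratios were those of Mt2 (6.16), Mt1 (5.26), Elovl3 (4.83), Cdkn1a (4.40) and Nlrp12 (4.31). The lowest were those of Fasn, Elovl6, Mid1ip1 (-3.91), Angptl8 (-3.83) and Igfbp7 (-3.76, with 12 UMIs against 172). Elovl3, which lengthens very long fatty acids, was the highest at 8 h at 846 CPM, from 7.58 CPM fed, 215 CPM at 4 h and 50.1 CPM at 16 h. At 16 h Lcn2 (4.85), Saa2 (4.55), Mt2 (4.20), Saa3 (4.19) and Saa1 (3.84) were highest, and Thrsp (-4.86), Fasn (-3.88), Elovl6 (-3.63) and Aacs (-3.37) were among the 5 lowest. At 24 h Gm33543 (4.89), Nlrp12 (4.63), Acot1 (4.33), Mt2 (4.07) and Fmo2 (3.92) were highest.

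Several of the lowest genes at 8 and 24 h rested on few UMIs in the fasted cells. In the fed intermediate cells, 197 of the 747 Tmsb4x UMIs were in cells of at least 3000 UMIs. At 8 h Tmsb4x had 1 UMI, a log2 ratio of -8.68 with an interval of -13.99 to -6.20, and Clec4g one of -6.98 (-12.29 to -4.49), followed by Marcks (-6.65), Ehd3 (-5.68) and Saa2 (-5.53). At 24 h Marcks (-5.45) and Cyp26b1 (-4.90) were lowest, ahead of Creld2 (-4.85), Elovl6 (-4.75) and Fasn (-4.58). The endothelial marker sum of the intermediate cells over the same libraries was 446 CPM fed, 24.2 CPM at 8 h and 39.0 CPM at 24 h, and its part in the ratios of Tmsb4x, Clec4g, Marcks, Ehd3 and Cyp26b1 was not tested. Without barcodes of 3 or more non-hepatocyte UMIs, Saa2 at 8 h and Creld2, Elovl6 and Fasn at 24 h stayed lower than fed by at least 2-fold.

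From each fasting time to the next, the steps differed in size. Between 4 and 8 h 1.87% of genes were called higher and 2.59% lower, between 8 and 16 h 11.2% and 10.8%, and between 16 and 24 h 13.1% and 11.9%. Selenbp2 had the highest ratio from 4 to 8 h (2.81) and Saa2 the lowest (-8.32). From 8 to 16 h Saa2 was highest (10.08) and Cdkn1a lowest (-6.52). From 16 to 24 h AY036118 (5.11), Rsad2 (5.01) and Fmo2 (4.48) were highest and Saa2 lowest (-6.84). The Rsad2 ratio rests on 1 cell at 24 h, without which its level was 18.3 CPM, against 3.93 CPM at 16 h. The smaller step lasted 4 h and the larger steps 8 h each, and they share libraries.

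The changes from fed in the intermediate cells were close to those in the neighbouring classes. Between 0.340% and 0.867% of genes differed by 2-fold or more in their change from the cells below, and between 0.341% and 1.37% from the cells above. The widest of these shares was at 24 h against the cells above.

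Per cell, with every cell thinned to 1000 UMIs that were not mt-, the share of intermediate cells with a Cyp2f2 UMI was 63.3%, 59.2%, 85.9%, 81.3% and 51.1% (79.3%, 71.9%, 93.3%, 94.7% and 77.8% before thinning). In barcodes with endothelial transcripts, which should lack the gene, the fed share was 39.8% of 88 barcodes, at a median of 2120 such UMIs against 1886 in the intermediate cells. The fed share of the cells above, 35.2%, did not exceed this background, and that of the intermediate cells did. The background was 0% (0 to 60.2) of 4 barcodes at 4 h, an interval that holds the intermediate share, 22.2% (2.81 to 60.01) of 9 at 8 h and 41.7% (22.1 to 63.4) of 24 at 16 h. At 24 h the background was 42.3% (23.4 to 63.1) of 26 barcodes, an interval that holds both the intermediate cells and the cells above, at 47.7%. A Cyp1a2 UMI was found in 10.1%, 11.5%, 21.0%, 10.0% and 4.13% of the intermediate cells, against 2.99%, 3.29%, 4.30%, 2.52% and 1.06% below and 36.2%, 34.8%, 41.5%, 37.1% and 14.9% above, with a fed background of 2.27% (0.276 to 7.97). At 4 h the background was 50% (6.76 to 93.2) of 4 barcodes, and at 8, 16 and 24 h it was 0% with intervals up to 33.6%, 14.2% and 13.2%. The Cyp1a2 share of the intermediate cells therefore lay above the interval of this background in the fed library alone. That background was itself held to low Cyp2e1, so its Cyp1a2 share is not independent of the cut. For Pck1 the share was 33.2%, 85.5%, 95.6%, 93.7% and 88.9%, but the background was 28.4% (19.3 to 39.0) fed, 91.7% at 16 h and 92.3% at 24 h. At 4 h it was 75% (19.4 to 99.4) of 4 barcodes. At those 4 times the Pck1 share of the intermediate cells did not stand clear of the background.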

How the data were processed

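The authors deposited raw UMI counts per gene and barcode made with Cell Ranger 6.0.1 per the file headers and the submitters' processing notes, which also name mm10. The counts of all 5 libraries were in 1 matrix of 32285 genes, with a table that gives each barcode's library. The members of the intermediate class and the gene lists were chosen with earlier results of these data known.

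From the counts, barcodes were filtered and classed as the report states, UMIs were summed per library and class, and CPM was taken over UMIs that were not mt-. Intervals are exact Poisson for CPM, Clopper-Pearson for shares and conditional binomial for ratios, at 95%, and cover counting error only. Genes were called at 2-fold or more against another time and 1.5-fold or more against another class, with at least 50 CPM on either side. The thinned shares used 1000 UMIs per cell, and background barcodes had 5 or more UMIs over 3 or more endothelial markers. Named genes were the class markers, list members with a key role, the 5 highest and 5 lowest ratios to fed, the 3 highest and 3 lowest ratios to each other class, and genes above or below both classes in 4 or 5 libraries. A few genes that this rule names are not reported here. The ends of the steps between consecutive times were named after their values were seen. Genes with near copies (Saa1 and Saa2, Mt1 and Mt2, Hamp and Hamp2, and the Mup, Cyp2c, Ugt2b and Gstp genes) may split reads and are uncertain singly. Of 239 list genes, 238 matched by symbol, and Tf did not. Coordinates are from GENCODE for GRCm38, where 32235 of the gene IDs were found.

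Alternatives covered the Cyp2e1 range, depth, mt- limits, denominators, doublets (without the 5% of barcodes with most UMIs), other cell types, scaling, and the CPM minimum. The code was tested on simulated data. Sums and intervals were computed with scipy 1.17.1 and pandas 2.3.3 on numpy 2.4.6 under Python 3.11.15, figures with matplotlib 3.10.9, and TMM factors alone with edgeR 4.0.16 in R 4.3.3.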

Additional observations from a re-analysis of the deposited data

Results flagged for a closer look

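In 3 cases a gene changed from fed in opposite directions in the intermediate cells and in the cells below the range. With 1 library per time, the difference was not tested. Lars2, the mitochondrial leucyl-tRNA synthetase, had a log2 change of -1.79 at 8 h in the intermediate cells (628 to 182 CPM) and of 0.97 in the cells below (165 to 323 CPM). Gm42418, a transcript of the ribosomal DNA region, had one of -0.89 at 8 h (8644 to 4654 CPM) and of 1.34 below (2378 to 6006 CPM). Rsad2 had one of 2.51 at 24 h (22.1 to 127 CPM) and of -0.96 below (14.1 to 7.25 CPM), but 172 of the 201 intermediate UMIs at 24 h were in 1 cell. Without it Rsad2 was at 18.3 CPM. Of the 73 fed UMIs 41 were in 1 cell as well, without which the fed level was 9.71 CPM. The direction in the intermediate cells thus turns when the 24 h cell alone is left out, but not when both cells are. The median depth of the intermediate cells over the same libraries was 2058 UMIs fed, 8015.5 UMIs at 8 h and 3120 UMIs at 24 h.

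Barcodes with under 2% mt- UMIs were outside the comparisons, yet many lay in the same Cyp2e1 range: 966, 1421, 248, 40 and 1148 in order of fasting time. They outnumbered the 712, 208 and 315 intermediate cells at 4, 8 and 24 h.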

How the results depend on the processing

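No paired analysis was possible because each time point has 1 library and no numbers are shared between groups. Depth limits the class: with few UMIs per cell, Cyp2e1 places a cell coarsely. At a minimum of 3000 UMIs the intermediate share was 6.99%, 7.61%, 5.88%, 11.0% and 4.89% at 0, 4, 8, 16 and 24 h. For Cyp2e1 from 8 to under 15 it was 5.89%, 6.81%, 3.02%, 4.14% and 3.10%, and from 3 to under 30 it was 23.5%, 27.3%, 14.2%, 28.4% and 16.9%. The middle tercile of each library held 33.0%, 33.1%, 33.2%, 33.1% and 33.3% by construction, and shared 0 cells with the class at 0, 8 and 24 h. Assignment after thinning gave 11.8%, 12.8%, 6.26%, 13.9% and 8.39%. With at most 15% mt- UMIs the share was 14.9%, 32.9%, 13.5% and 10.2% at 0, 4, 16 and 24 h, and with no lower limit 20.5%, 21.5%, 13.9%, 12.8% and 14.7% at the 5 times. Taken per 10000 UMIs that were not mt-, the share was 14.8% (16 h) and 7.93% (24 h). Without barcodes of other cell types the fed share was 12.9%.

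Genes called against fed, 370, 622, 325 and 603 in the report's setting, were 695 (4 h) and 1272 (24 h) with at most 15% mt- UMIs, 664 (16 h) and 916 (24 h) with no lower mt- limit, 539 (16 h) as a mean over cells and 215 (16 h) in the middle tercile. A minimum of 10 CPM gave 1169, 1681, 876 and 1669, and of 200 CPM 145, 244, 118 and 226. The split of higher against lower calls moved most at 4 h: 138 to 232 became 106 to 379 as a mean over cells, 260 to 909 at 10 CPM and 80 to 65 at 200 CPM. At 200 CPM the split was 124 to 120 (8 h) and 111 to 115 (24 h). With no lower mt- limit 8 h had 187 to 451.

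Calls against the cells below, 704 over the 5 libraries, were 295 at 3000 UMIs, 16 in the middle tercile, 2420 with at most 15% mt- UMIs, 3727 with no lower mt- limit, 264 after thinning, 2505 as a mean over cells, 2576 at 10 CPM and 276 at 200 CPM. Against the cells above, 1356 became 894 at 3000 UMIs, 748 in the middle tercile, 2725 with no lower mt- limit, 2322 as a mean over cells, 4368 at 10 CPM and 539 at 200 CPM. The median of the pericentral list against the cells below at 24 h, 1.15, was -0.049 in the middle tercile. Genes above both classes in 4 or 5 libraries, 105, were 4 in the middle tercile, 8 at a wider margin beyond both classes and 40 at 3000 UMIs, and genes below both, 168, were 3, 8 and 63; the 3000 UMI setting here was added after seeing the data. Apart from the stated construction of the tercile and CPM minimums, the cause of these shifts was not tested. Of 3025 recomputed ratios of named genes at 2-fold or more from fed, 0 had the other sign and 2837 stayed at 2-fold or more, while 501 of 6128 smaller ones had the other sign.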

Other observations

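Immediate early genes, which respond within minutes to stress and to cell isolation, were few above 50 CPM in the intermediate cells. Against fed, Egr1 was called higher at 4 and 16 h and Dusp1 lower at 4 h, of 3 and 4 genes tested. At 8 h both genes tested, Junb and Dusp1, were called lower, and at 24 h both of 2 were.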
